A study of Homo sapiens with 25 samples.

Results

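The genes described here are 49 nucleolar factors of ribosome biogenesis, found in the count table by gene name. They were the core proteins of the box C/D and H/ACA small nucleolar ribonucleoproteins, a set of abundant nucleolar proteins and helicases, and processing and assembly factors of the small and large ribosomal subunits. All 49 were among the 28395 gene rows of the count table, and all 49 passed the filter on low counts that left 14658 genes for testing. The cells were A549, an established human lung carcinoma line, in which TRRAP, a large scaffold protein shared by histone acetyltransferase complexes such as SAGA and TIP60, carries the auxin-inducible degron mAID, so that 5-Ph-IAA triggers its breakdown. Every group carried that tag and was held in 2 mM thymidine for 20 h and then released for 4 h. The 4 groups of 3 RNA libraries were cells given both drugs (1 µM 5-Ph-IAA for 6 h and the CHK1 inhibitor prexasertib for 3 h), cells given 5-Ph-IAA, cells given prexasertib, and cells given DMSO. The labels of the RNA libraries give the genotype as WT, while their growth protocol names mAID-TRRAP, and do not say whether the replicates were separate cultures or whether the line is 1 clone. The p-values therefore measure the spread between these libraries, which may be technical. A further 13 chromatin samples are not analysed here.

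Ribosomes are built in the nucleolus, where RNA polymerase I transcribes a long precursor RNA that is modified, folded and cut while ribosomal proteins are added. Box C/D particles guide the addition of methyl groups to ribosomal RNA and H/ACA particles guide its conversion of uridine to pseudouridine. Small subunit factors assemble on the 5′ part of the precursor as the processome, and large subunit factors, the PeBoW complex among them, process the remainder. Many of these genes are textbook targets of MYC, a transcription factor that binds the E-box and for which TRRAP is a known cofactor.

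Because the members are a gene set often discussed as E-box genes, their promoters were read from the RefSeq promoter table (build GRCh38.p14), which holds the 250 bases before each gene start and the 50 bases from it on. Of the 49 members, 41 had an entry, and NOP58, NOLC1, RRP12, BOP1, RRS1, RRP1B, DDX18 and URB2 did not. The letters searched were the E-box CACGTG, which reads the same on both strands. Of the 41 promoters, taken at the first start listed for each gene, 18 held it (43.9%), compared with 7.43% of the 27305 gene promoters of the table and 9.9% of the 11547 promoters of tested genes. With every listed start counted, the shares were 51.2% of member promoters and 8.77% of all gene promoters. The 5 promoters below belong to 4 members with an E-box and to NOP16, a member without one whose RNA fell most with 5-Ph-IAA, so that both kinds can be compared. Each runs 5′ to 3′ on its gene's strand, and the capitals mark the E-box. They span chr3:51941855-51942154 (minus strand) for RRP9, chr2:28894417-28894716 (plus strand) for WDR43, chr9:4792694-4792993 (plus strand) for RCL1, chr1:43172521-43172820 (minus strand) for EBNA1BP2 and chr5:176388549-176388848 (minus strand) for NOP16.
RRP9: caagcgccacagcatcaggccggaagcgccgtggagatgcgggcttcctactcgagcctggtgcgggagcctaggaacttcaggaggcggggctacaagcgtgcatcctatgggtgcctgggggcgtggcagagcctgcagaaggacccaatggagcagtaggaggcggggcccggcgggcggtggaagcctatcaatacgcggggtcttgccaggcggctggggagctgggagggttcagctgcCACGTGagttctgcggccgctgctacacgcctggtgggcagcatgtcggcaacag
WDR43: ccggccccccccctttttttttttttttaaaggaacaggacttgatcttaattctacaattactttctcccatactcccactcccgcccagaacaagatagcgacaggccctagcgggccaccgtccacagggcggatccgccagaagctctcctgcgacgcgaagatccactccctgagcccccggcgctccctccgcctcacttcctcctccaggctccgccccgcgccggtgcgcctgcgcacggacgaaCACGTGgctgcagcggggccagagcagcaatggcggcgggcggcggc
RCL1: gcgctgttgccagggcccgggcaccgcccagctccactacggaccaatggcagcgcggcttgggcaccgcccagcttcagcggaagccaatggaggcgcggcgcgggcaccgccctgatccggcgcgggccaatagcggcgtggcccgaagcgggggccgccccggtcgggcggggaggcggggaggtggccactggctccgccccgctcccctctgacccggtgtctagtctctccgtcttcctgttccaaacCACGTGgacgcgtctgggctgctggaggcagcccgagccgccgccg
EBNA1BP2: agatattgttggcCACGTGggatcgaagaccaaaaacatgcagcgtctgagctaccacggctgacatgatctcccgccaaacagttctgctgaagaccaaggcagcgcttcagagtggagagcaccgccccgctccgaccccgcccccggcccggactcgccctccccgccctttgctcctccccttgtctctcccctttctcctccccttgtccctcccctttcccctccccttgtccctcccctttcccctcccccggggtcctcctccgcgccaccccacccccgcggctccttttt
NOP16: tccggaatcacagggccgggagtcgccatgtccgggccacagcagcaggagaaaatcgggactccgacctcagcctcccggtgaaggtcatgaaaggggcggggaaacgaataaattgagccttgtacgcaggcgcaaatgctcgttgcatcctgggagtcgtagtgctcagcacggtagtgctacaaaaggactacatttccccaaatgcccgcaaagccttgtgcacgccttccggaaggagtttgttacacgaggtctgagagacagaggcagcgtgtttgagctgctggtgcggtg

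In the RRP9, WDR43 and RCL1 promoters the E-box lay at the gene start, its first base at -5, 4 and 5 with the start base counted as 1. In EBNA1BP2 it lay 237 bases before the start. Over the members, 17 of 19 E-boxes began within 50 bases of the start, between -16 and 36. By role, at the first start listed, the E-box was in 1 of 2 box C/D core promoters (FBL), 0 of 3 H/ACA core promoters, 0 of 3 promoters of the abundant nucleolar proteins, 10 of 18 small subunit promoters and 7 of 15 large subunit promoters. With every listed start counted, it was in 1 of 3 H/ACA core, 1 of 3 abundant nucleolar and 8 of 15 large subunit genes. A match of 6 letters describes the sequence and does not show that a factor binds there.

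Depth did not limit most members. The libraries held 10830048 to 17789482 counts, and 48 of the 49 members had over 100 counts in every library. The exception was PPAN, with as few as 30, while NCL reached 16545. The A549 markers were all above the filter, with summed levels of 10210 to 11430 CPM (counts scaled to a common library size) with both drugs and 10044 to 10366 with 5-Ph-IAA, against 11809 to 13268 with prexasertib and 12139 to 13355 with DMSO. EPCAM, with group means of 0.652 to 1.06 CPM, and KRT19, with 3.48 to 5.29 CPM, were low and add little to these sums. The sums with and without 5-Ph-IAA did not overlap. Of the 11 A549 markers KRT8, VIM and AKR1B10 fell with 5-Ph-IAA against DMSO, where 12.2% of all tested genes were called lower. The means of KRT18, KRT19, CDH1, CDH2, AKR1C1 and NQO1 were also lower, and those of EPCAM and GCLM were not. Of 16 markers of blood, fibroblast, endothelial and neural cells, 5 passed the filter (COL1A1, COL3A1, SNAP25, SYT1 and RBFOX3) and DCN had no count in any library. COL1A1 had group means of 30.3 to 34.7 CPM and SNAP25 of 44.9 to 52.1 CPM. The summed CPM of the 16 were 80.7 to 101 with both drugs and 83.5 to 97.3 with 5-Ph-IAA, against 99.6 to 110 with prexasertib and 93.9 to 102 with DMSO. The part of these markers in the results was not tested. By the RefSeq annotation, 15 members overlap another counted gene between gene start and end, with small nucleolar, micro, small nuclear and transfer RNA genes left aside. Exons were not compared, and how the counting treated strand and shared stretches is not given. Whether reads of each pair were told apart is therefore not known, and these values are uncertain. On the other strand these are NHP2, NOP14, BYSL, TSR1, HEATR1, GNL3, GNL2, NOP16, NLE1, EBNA1BP2, NOC2L and NOC3L, on the same strand GRWD1 and PPAN, and on a strand not recorded BOP1. PPAN also overlaps the gene PPAN-P2RY11, whose strand is not recorded. TRRAP mRNA averaged 119 ± 20.8 CPM with both drugs and 133 ± 15.3 with 5-Ph-IAA, against 74.8 ± 10.4 with prexasertib and 83.2 ± 9.9 with DMSO (SD, n = 3 each), and was called higher with 5-Ph-IAA in both arms (log2 fold change 0.67 ± 0.14 SE in each). The degron acts on the protein, so the mRNA does not check the degradation.

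The members together took a smaller share of all counts in cells given 5-Ph-IAA. That share was 0.548% to 0.609% with both drugs and 0.532% to 0.589% with 5-Ph-IAA, against 0.7% to 0.747% with prexasertib and 0.68% to 0.767% with DMSO, so the libraries with and without 5-Ph-IAA did not overlap. In bulk RNA, a lower level in every cell and a lower level in part of the cells cannot be told apart. All levels are in CPM, with library sizes scaled by TMM, edgeR's trimmed mean of log ratios, and they are compared between groups for 1 gene at a time, never between genes. A gene was called where the edgeR quasi-likelihood test gave a Benjamini-Hochberg adjusted p under 0.05 over all 14658 genes.

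**Figure D1:**
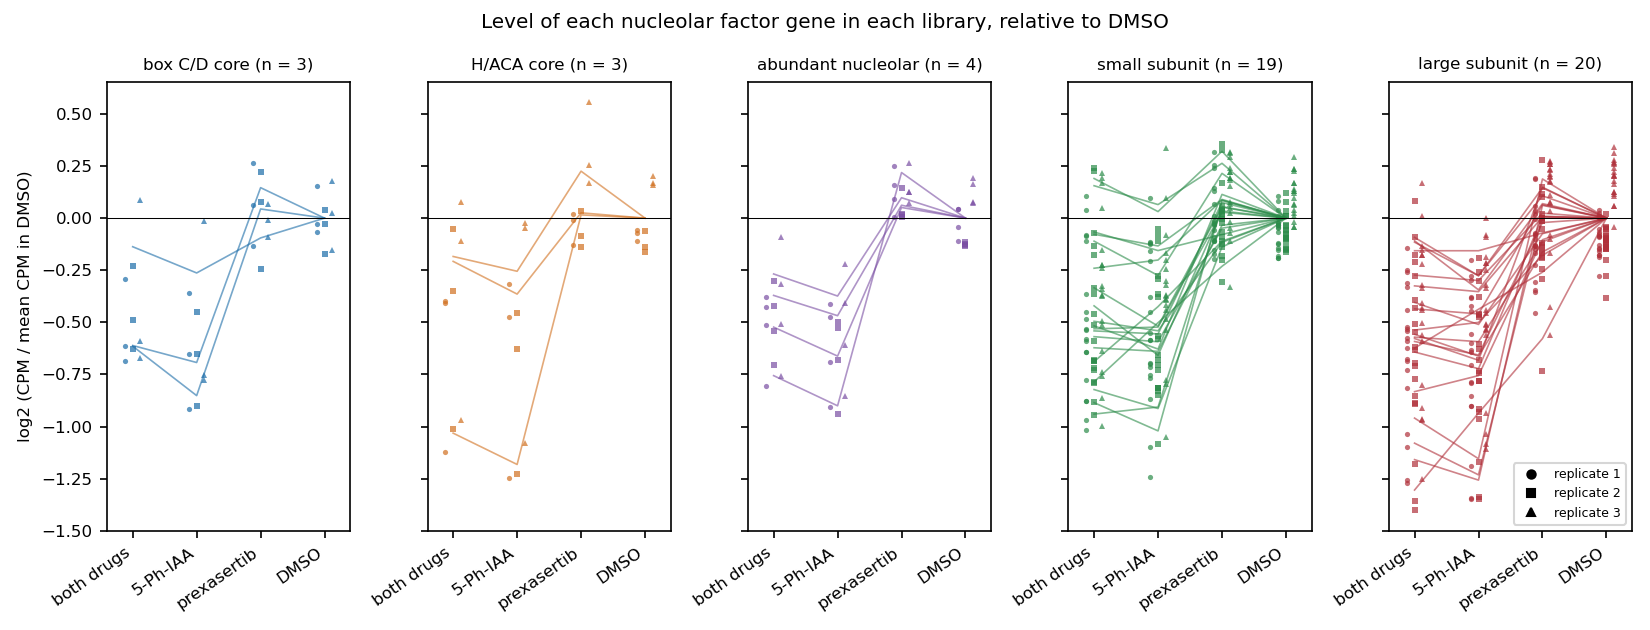
Level of each of the 49 members in each library, as log2 of CPM over that gene's mean in DMSO (y axis), by group (x axis: both drugs, 5-Ph-IAA, prexasertib, DMSO), with a panel for each role. Markers are single libraries and lines join each gene's group means; most lines lie below 0 in the 2 groups with 5-Ph-IAA and near 0 with prexasertib, while URB2 lies lower with prexasertib as well.

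The first question was what 5-Ph-IAA alone did to these genes. Of the 49 members, 36 fell against DMSO and 0 rose, where 12.2% of all tested genes were called lower and 9.65% higher. At an unadjusted p under 0.05, 40 members were lower and 0 higher (18.2% and 16.4% of all genes). DESeq2 and limma-voom each called 37 members lower and 0 higher, where they called 13.6% and 12.7% of all genes lower. The median log2 fold change was -0.53 over the members and 0.01 over all genes. In 38 members every 5-Ph-IAA library lay below every DMSO library, as in 18.9% of all genes. Within the replicate numbers 1, 2 and 3 the members' median difference was -0.50, -0.54 and -0.54, with 47 of 49 members below 0 each time. Same-numbered libraries tended to deviate together, so the number was also used as a block, though a pairing of the libraries is inferred from this alone. With the block 44 members were called lower, where 23.6% of all genes were. Scaling by library size alone, which shifts the median of all genes to 0.16, gave 29 members (6.73% of all genes) lower and 0 higher, and the share of all calls that were lower was then 24.6%, against 55.8% with TMM. With upper quartile scaling, 34 members (9.35% of all genes) and 39.9% of all calls were lower. A change of scaling shifts every gene alike, so the members' median relative to that of all genes, -0.53, is the same under each by construction.

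In the box C/D core, 2 of 3 genes fell with 5-Ph-IAA. NOP56 and NOP58 form the scaffold of the particle and FBL (fibrillarin) is its methyltransferase. NOP56 (chr20:2652632-2658393) had 211, 209 and 215 CPM with both drugs and 171, 173 and 192 CPM with 5-Ph-IAA, against 337, 341 and 321 CPM with prexasertib and 308, 332 and 329 CPM with DMSO. The libraries with and without 5-Ph-IAA were far apart, and the gene fell with 5-Ph-IAA by 0.85 ± 0.066 on the log2 scale (SE, adjusted p = 2.2e-06). NOP58 had 93.4, 107 and 94.2 CPM with both drugs and 95.5, 95.4 and 87.5 CPM with 5-Ph-IAA, against 180, 175 and 141 CPM with prexasertib and 167, 147 and 135 CPM with DMSO. Its groups did not overlap either, with a log2 fold change of -0.69 ± 0.1 for 5-Ph-IAA against DMSO (adjusted p = 0.0004). FBL had 333, 348 and 433 CPM with both drugs and 318, 299 and 404 CPM with 5-Ph-IAA, against 372, 345 and 428 CPM with prexasertib and 400, 362 and 462 CPM with DMSO. Library 3 was the highest of each FBL group and the groups overlapped. The change of -0.26 ± 0.14 was not called (adjusted p = 0.19), though it was with the block (adjusted p = 2.8e-05) and without the 5-Ph-IAA library 3 (-0.40, adjusted p = 0.04).

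In the H/ACA core, 1 of 3 genes fell. DKC1 (dyskerin) is the pseudouridine synthase of the particle, and NHP2 and GAR1 are partner proteins of it. DKC1 (chrX:154762864-154777689) had 84.4, 91.3 and 94.1 CPM with both drugs and 77.5, 78.5 and 87.2 CPM with 5-Ph-IAA, against 183, 167 and 207 CPM with prexasertib and 177, 167 and 207 CPM with DMSO. Every 5-Ph-IAA library was near 0.44 times the DMSO level, a log2 fold change of -1.18 ± 0.098 (adjusted p = 3.6e-06). NHP2 had 170, 176 and 236 CPM with both drugs and 161, 145 and 217 CPM with 5-Ph-IAA, against 205, 211 and 267 CPM with prexasertib and 213, 200 and 258 CPM with DMSO. GAR1 had 21.4, 27.4 and 26.3 CPM with both drugs and 22.8, 20.7 and 27.9 CPM with 5-Ph-IAA, against 28.8, 29.1 and 41.8 CPM with prexasertib and 26.3, 27.2 and 31.7 CPM with DMSO. Both partners overlapped between 5-Ph-IAA and DMSO, and neither change was called (NHP2 -0.36 ± 0.17, adjusted p = 0.16, and GAR1 -0.26 ± 0.16, adjusted p = 0.28). With the replicate block both were (adjusted p = 1.7e-07 for NHP2 and 0.03 for GAR1), and NHP2 was also called without the 5-Ph-IAA library 3 (-0.56, adjusted p = 0.03).

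All 4 abundant nucleolar proteins fell with 5-Ph-IAA. NCL (nucleolin, a major protein of the dense nucleolar regions) had 931, 904 and 971 CPM with both drugs and 869, 839 and 913 CPM with 5-Ph-IAA, against 1289, 1225 and 1272 CPM with prexasertib and 1247, 1107 and 1274 CPM with DMSO. NPM1 (nucleophosmin, a histone and assembly chaperone) had 848, 924 and 1068 CPM with both drugs and 855, 805 and 978 CPM with 5-Ph-IAA, against 1270, 1145 and 1241 CPM with prexasertib and 1176, 1044 and 1196 CPM with DMSO. Neither overlapped between the 5-Ph-IAA and DMSO libraries, at -0.47 ± 0.073 for NCL (adjusted p = 0.00056) and -0.37 ± 0.1 for NPM1 (adjusted p = 0.016). The NPM1 call was lost without DMSO library 1 or 3 and without 5-Ph-IAA library 1 or 2, at -0.36 to -0.31, and with library size alone, at -0.22. NOLC1 (a chaperone of small nucleolar particles) had 175, 172 and 176 CPM with both drugs and 155, 156 and 164 CPM with 5-Ph-IAA, against 251, 253 and 273 CPM with prexasertib and 232, 231 and 286 CPM with DMSO. DDX21 (an RNA helicase of the nucleolus) had 192, 206 and 199 CPM with both drugs and 179, 175 and 186 CPM with 5-Ph-IAA, against 399, 371 and 404 CPM with prexasertib and 326, 306 and 376 CPM with DMSO. DDX21 changed most of the 4, at -0.90 ± 0.078 (adjusted p = 5.2e-06), beside -0.66 ± 0.082 for NOLC1 (adjusted p = 0.00011).

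Of the 19 small subunit factors, 14 fell with 5-Ph-IAA and 0 rose, with a median of -0.53. NOB1, the endonuclease that makes the last cut of the small subunit RNA, had 44.9, 52.5 and 49.9 CPM with both drugs and 38.4, 42.8 and 53 CPM with 5-Ph-IAA, against 85.3, 92.9 and 111 CPM with prexasertib and 79.9, 81 and 111 CPM with DMSO. WDR43, a processome protein, had 87.5, 83.7 and 80.6 CPM with both drugs and 88.3, 91.6 and 77.7 CPM with 5-Ph-IAA, against 178, 165 and 159 CPM with prexasertib and 161, 154 and 169 CPM with DMSO. RRP9, a protein of the U3 particle, had 20.7, 22 and 26 CPM with both drugs and 18.9, 22.5 and 23.3 CPM with 5-Ph-IAA, against 35.3, 32.7 and 42.5 CPM with prexasertib and 38.7, 37.4 and 45.5 CPM with DMSO. In all 3 the 5-Ph-IAA and DMSO libraries did not overlap, and the 5-Ph-IAA level was 0.49, 0.53 and 0.53 times that with DMSO, with log2 fold changes of -1.02 ± 0.15, -0.91 ± 0.077 and -0.91 ± 0.13 (adjusted p = 0.00042, 4.4e-06 and 0.00031). IMP3, which helps U3 pair with the precursor, had 71.2, 72.5 and 79.6 CPM with both drugs and 59.1, 56.7 and 73.5 CPM with 5-Ph-IAA, against 97.6, 93.6 and 114 CPM with prexasertib and 97.5, 89.7 and 112 CPM with DMSO. It fell by 0.66 ± 0.11 on the log2 scale (adjusted p = 0.0011), with no overlap. The other 10 that fell were BYSL, IMP4, RRP12, PNO1, NOP14, UTP4, TSR1, RCL1, HEATR1 and LTV1, at -0.64 to -0.28.

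The small subunit genes UTP3, UTP15, UTP20, NOC4L and DDX10 were not called. UTP3, a processome factor, had 48.8, 53.7 and 52.8 CPM with both drugs and 48.6, 42.1 and 48.5 CPM with 5-Ph-IAA, against 56.5, 57 and 56.6 CPM with prexasertib and 41.6, 47.9 and 46.6 CPM with DMSO. UTP15, which belongs to the t-UTP group that acts early on the precursor, had 33.4, 38 and 37.2 CPM with both drugs and 29.8, 31.3 and 41 CPM with 5-Ph-IAA, against 38.4, 41.6 and 37.1 CPM with prexasertib and 35, 30.4 and 32.1 CPM with DMSO. Their 5-Ph-IAA and DMSO libraries overlapped, and the log2 fold changes were 0.03 ± 0.086 for UTP3 and 0.06 ± 0.12 for UTP15 (adjusted p = 0.84 and 0.76), values whose sign turned when single libraries were left out. These were the only members with a positive estimate in this comparison with TMM scaling. UTP4, another t-UTP gene, fell by 0.53 ± 0.14 on the log2 scale (adjusted p = 0.016), and HEATR1, also of that group, fell by 0.43 ± 0.065 (adjusted p = 0.00046). DDX10 was not called without the block (-0.20 ± 0.088, adjusted p = 0.12) and was with it (adjusted p = 0.036).

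Of the 20 large subunit factors, 15 fell with 5-Ph-IAA and 0 rose, with a median of -0.55. NOP16 and RRS1 had the largest falls of all 49 members in this comparison. NOP16, a protein of large subunit precursors, had 24.1, 22.5 and 30.6 CPM with both drugs and 22.7, 22.6 and 27.2 CPM with 5-Ph-IAA, against 51.9, 61.7 and 66.8 CPM with prexasertib and 50.6, 52.7 and 69.4 CPM with DMSO. RRS1, which works in the assembly of the 5S RNA particle, had 43.5, 41 and 47.6 CPM with both drugs and 36.6, 36.8 and 45.4 CPM with 5-Ph-IAA, against 94.2, 81.7 and 105 CPM with prexasertib and 82.4, 86.6 and 110 CPM with DMSO. GNL3 (nucleostemin, a nucleolar GTPase) had 42.8, 47.3 and 45 CPM with both drugs and 38.5, 39 and 40.7 CPM with 5-Ph-IAA, against 100, 95 and 105 CPM with prexasertib and 88.1, 79.3 and 95.7 CPM with DMSO. In all 3 the libraries with and without 5-Ph-IAA lay far apart, at -1.26 ± 0.15, -1.23 ± 0.13 and -1.16 ± 0.082 for 5-Ph-IAA against DMSO (adjusted p = 8.8e-05, 2.8e-05 and 1.2e-06).

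URB2, a factor of early large subunit particles, had 17.2, 15.7 and 17.4 CPM with both drugs and 22.2, 21.3 and 21.7 CPM with 5-Ph-IAA, against 30.3, 25 and 28.1 CPM with prexasertib and 34.2, 38.6 and 51.5 CPM with DMSO. Its groups did not overlap in any comparison that adds 1 drug, and it fell with 5-Ph-IAA by 0.93 ± 0.13 (adjusted p = 0.00033). The PeBoW complex, which matures the large subunit RNA, consists of PES1, BOP1 and WDR12. PES1 and BOP1 both fell at -0.66 (± 0.13 and ± 0.14, adjusted p = 0.0036 and 0.0056), while WDR12 at -0.36 ± 0.13 was not called (adjusted p = 0.074) except with the block (adjusted p = 0.00039). The others that fell were NLE1, MRTO4, NOP2, RRP1B, DDX56, GRWD1, NIP7, NOC3L and GNL2, at -0.76 to -0.30.

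At the other end of the large subunit list, DDX18, a helicase, had 123, 137 and 133 CPM with both drugs and 127, 128 and 138 CPM with 5-Ph-IAA, against 139, 141 and 138 CPM with prexasertib and 150, 136 and 152 CPM with DMSO. EBNA1BP2, an assembly factor, had 91.2, 100 and 127 CPM with both drugs and 84.4, 82.1 and 113 CPM with 5-Ph-IAA, against 129, 112 and 133 CPM with prexasertib and 108, 102 and 128 CPM with DMSO. Neither separated 5-Ph-IAA from DMSO, at -0.16 ± 0.067 for DDX18 (adjusted p = 0.11) and -0.28 ± 0.15 for EBNA1BP2 (adjusted p = 0.2). The block called both (adjusted p = 0.018 and 0.00042), and EBNA1BP2 was also called without the 5-Ph-IAA library 3 (-0.44, adjusted p = 0.034). NOC2L (-0.28 ± 0.096, adjusted p = 0.053 and with the block 8e-05) and PPAN (-0.34 ± 0.25, adjusted p = 0.36) were the remaining genes not called.

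**Figure D2:**
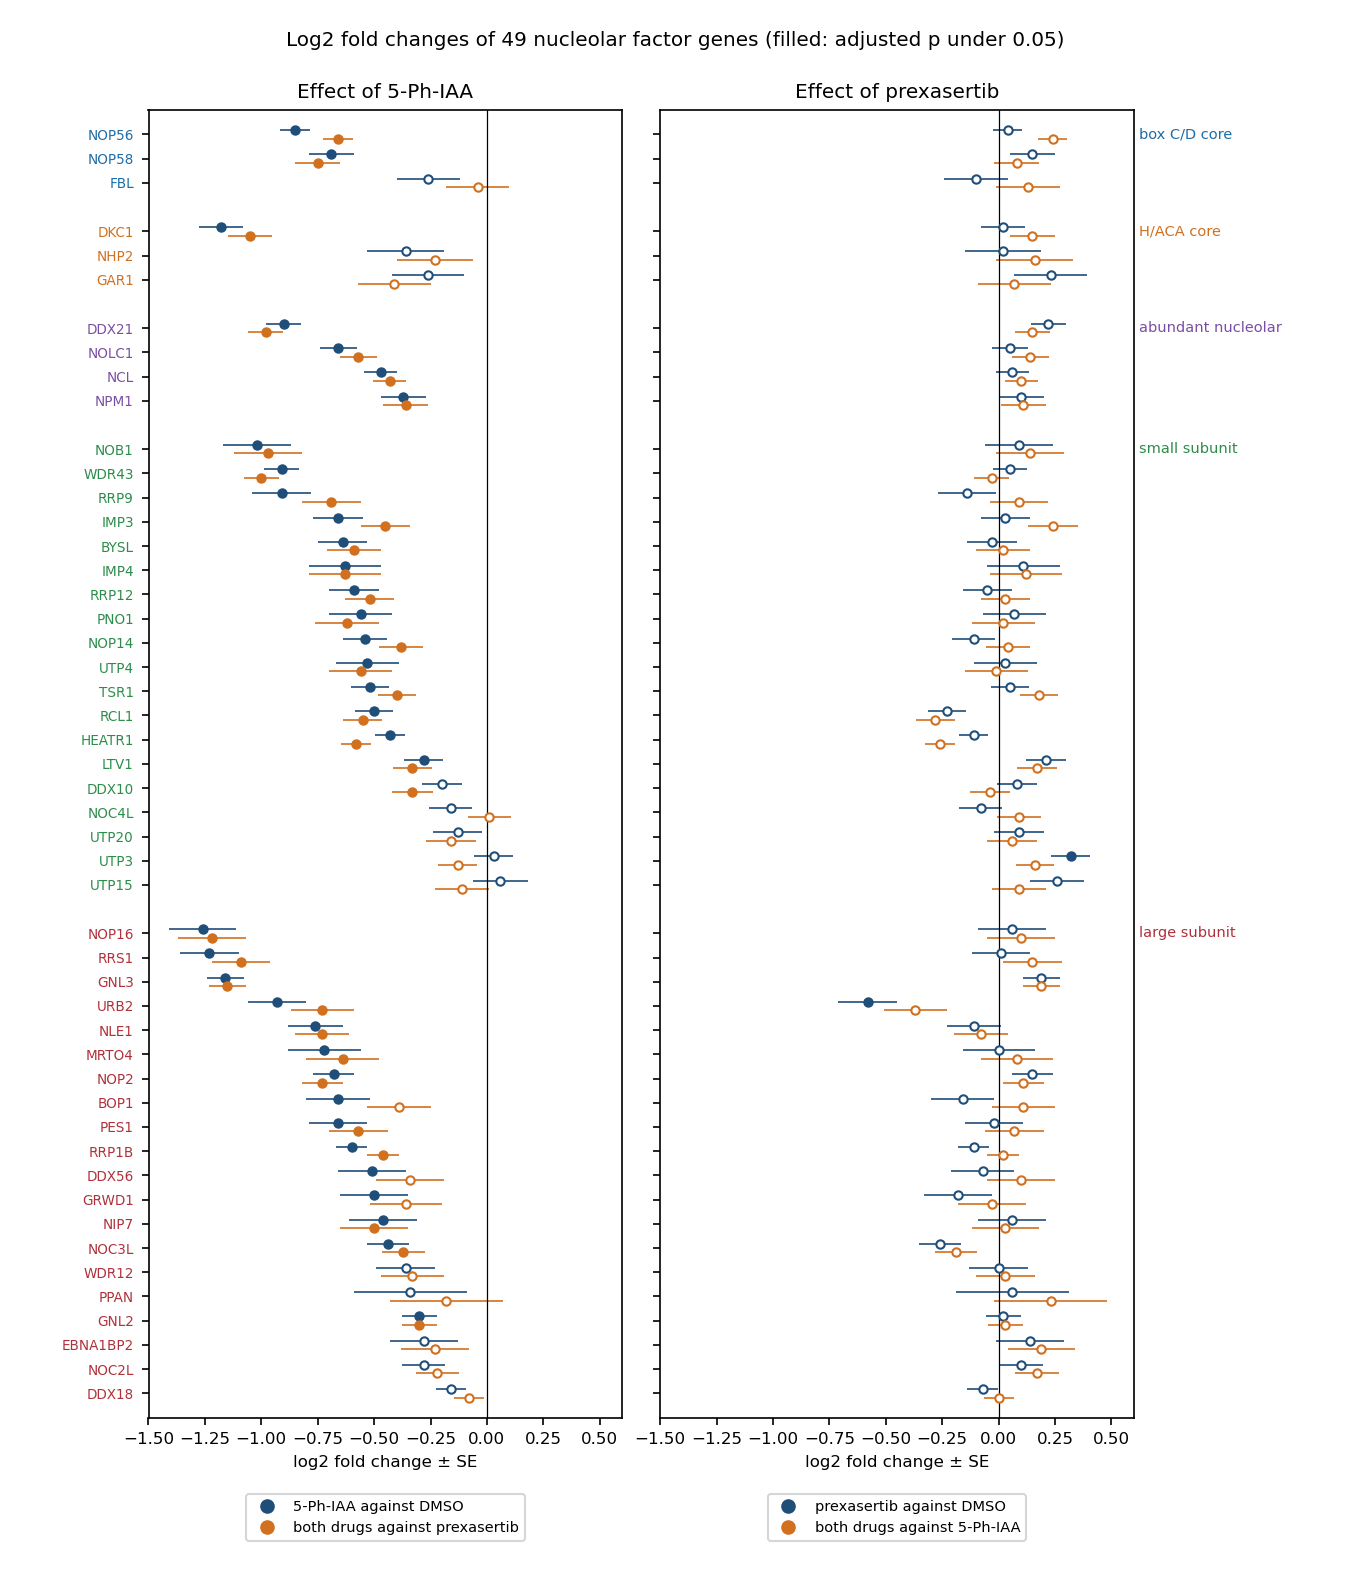
Log2 fold change (x axis) with its SE for each of the 49 members (rows, coloured and grouped by role), with the effect of 5-Ph-IAA on the left and of prexasertib on the right. Filled circles have an adjusted p under 0.05: 36 and 34 members on the left for 5-Ph-IAA without and with prexasertib, all below 0, and UTP3 and URB2 on the right.

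The second question was whether 5-Ph-IAA had the same effect in cells that also received prexasertib. Both drugs against prexasertib called 34 members lower and 0 higher, where 10.4% of all genes were called lower and 7.85% higher. At an unadjusted p under 0.05, 40 were lower and 0 higher (16% and 15.2% of all genes). DESeq2 called 35 lower (12% of all genes) and limma-voom 34 (10.2%), and neither called 1 higher. The median was -0.46, against 0.01 over all genes, and in 40 members the libraries did not overlap (17.6% of all genes). With the block 42 members were called lower (19.9% of all genes), and those gained were NHP2, GAR1, WDR12, BOP1, DDX56, GRWD1, EBNA1BP2 and NOC2L, at -0.41 to -0.22. The counts by role were 2 of 3 for the box C/D core, 1 of 3 for the H/ACA core, 4 of 4 for the abundant proteins, 15 of 19 for the small subunit and 12 of 20 for the large subunit. With library size alone, 27 members (6.06% of all genes) and 25.7% of all calls were lower, against 57% of calls with TMM. With upper quartile scaling it was 32 members (7.83% of all genes) and 40.6% of calls.

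The sizes were close to those without prexasertib. NOP16 fell by 1.22 ± 0.15 (adjusted p = 0.00012), GNL3 by 1.15 ± 0.082 (2.1e-06), RRS1 by 1.09 ± 0.13 (8.6e-05), DKC1 by 1.05 ± 0.098 (1.1e-05) and WDR43 by 1.00 ± 0.077 (3.1e-06), on the log2 scale. DDX21 and NOB1 followed at -0.98 ± 0.078 and -0.97 ± 0.15. FBL was not called, at -0.04 ± 0.14 (adjusted p = 0.88), and this value turned positive with library size alone (0.10). NPM1 was called at -0.36 ± 0.1 (adjusted p = 0.022), but not without prexasertib library 1 or both-drugs library 1 or 2, at -0.35 to -0.29, nor with library size alone, at -0.23. IMP3 at -0.45 ± 0.11 (adjusted p = 0.014) was not called without both-drugs library 1 (-0.42) or library 2 (-0.43).

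The 2 arms share no libraries. In both, 33 members fell, which is 91.7% of those that fell without prexasertib and 97.1% of those that fell with it, and 8.18% of all genes were called lower in both. BOP1, DDX56 and GRWD1 passed the test only without prexasertib (with it, -0.39, -0.34 and -0.36, adjusted p = 0.074, 0.13 and 0.14), and DDX10 only with it (-0.33 ± 0.089, adjusted p = 0.021). The difference between the arms was tested as the interaction of the drugs, which called 0 of 49 members and 0 of 14658 genes by edgeR, with 1 member and 519 genes at an unadjusted p under 0.05. DESeq2 called 5 genes and no member, limma-voom 0, and edgeR with the block called 0.375% of genes higher and 0.28% lower, none of them a member. The members' interaction values ran from -0.17 to 0.27, with a median of 0.05. Across the 49 members the 2 log2 fold changes had a Pearson r of 0.933, and across all 14658 genes 0.739, both as descriptions, since genes of a library share its depth and scaling.

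**Figure D3:**
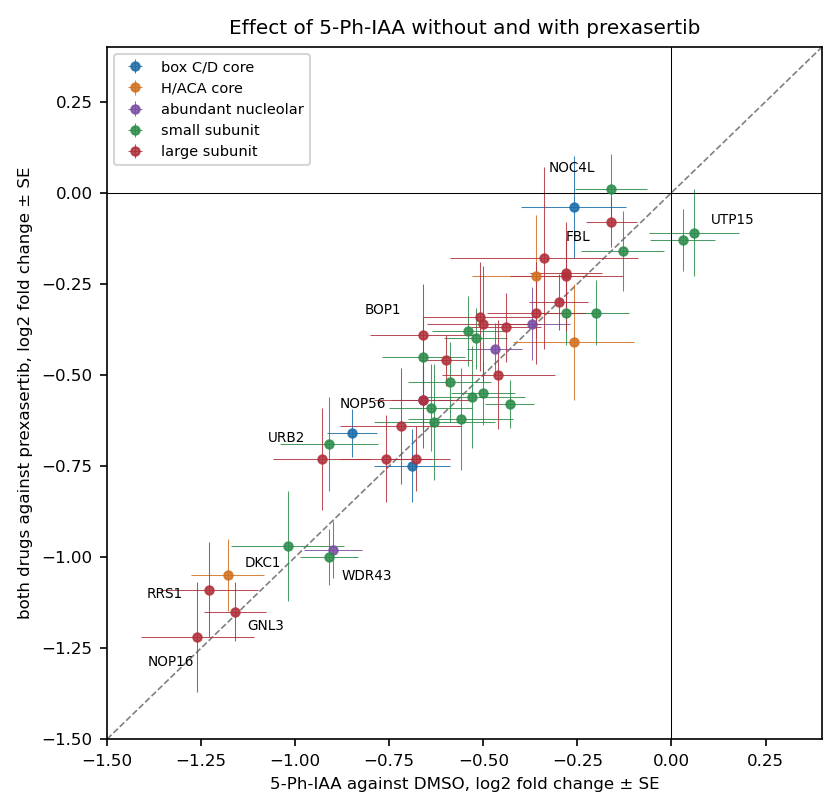
Each point is a member, with its log2 fold change ± SE for 5-Ph-IAA against DMSO on the x axis and for both drugs against prexasertib on the y axis, coloured by role, with a dashed line where the 2 are equal. NOP16, RRS1, DKC1 and GNL3 lie at the lower left, below -1 on both axes, and the points lie within 0.27 of the line.

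The third question was what prexasertib did to these genes. In cells without 5-Ph-IAA, 1 member rose and 1 fell against DMSO, where 2.36% of all genes were called higher and 2.37% lower, so the share of members called was close to the background. The median was 0.03. UTP3, with the library values given above, rose by 0.32 ± 0.086 (adjusted p = 0.048), and its prexasertib libraries lay above all DMSO libraries. This call was lost under 9 of the 12 single-library omissions, those of each DMSO and each prexasertib library among them, with log2 values of 0.26 to 0.36 in these 9. URB2 fell by 0.58 ± 0.13 (adjusted p = 0.025), with its prexasertib libraries at 25 to 30.3 CPM and its DMSO libraries at 34.2 to 51.5 CPM. DMSO library 3 stood highest, and without it the fall was 0.39 (adjusted p = 0.084). The URB2 call was also lost without prexasertib library 1, 2 or 3, at -0.64 to -0.51. With the block, 3 members were called higher (UTP3, DDX21 and GNL3) and 4 lower (URB2, NOC3L, BOP1 and GRWD1), at backgrounds of 8.37% and 9.77%. DDX21, the third by p, was at 0.22 ± 0.077 (adjusted p = 0.14, with the block 0.0018, and 0.036 without DMSO library 3).

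In cells given 5-Ph-IAA, adding prexasertib moved 0 members past the threshold in either direction by edgeR, where 1.17% of all genes were called higher and 1.26% lower. At an unadjusted p under 0.05, 2 members were higher and 3 lower (6.06% and 7.74% of all genes). Of the members limma-voom called none, and DESeq2 called NOP56 higher and HEATR1 lower (2.13% and 2.35% of all genes). The 3 members with the smallest p were HEATR1, NOP56 and RCL1. HEATR1 had 78.1, 75.9 and 73.1 CPM with both drugs, against 93.9, 94.7 and 84.2 CPM with 5-Ph-IAA, a difference of -0.26 ± 0.065 that did not pass the threshold (adjusted p = 0.05). Its groups did not overlap, and in the remaining groups HEATR1 had 113 CPM in each of the 3 prexasertib libraries, against 120, 123 and 124 CPM with DMSO. RCL1, a factor of early cleavage, had 22.4, 24.9 and 24.4 CPM with both drugs, against 30.2, 27.6 and 29.5 CPM with 5-Ph-IAA, a difference of -0.28 ± 0.086 (adjusted p = 0.12). In the remaining groups RCL1 had 36.6, 35.8 and 32.8 CPM with prexasertib, against 40.5, 40.2 and 43 CPM with DMSO, without overlap. NOP56 was at 0.24 ± 0.065 (adjusted p = 0.071), its 3 both-drugs libraries above the 3 with 5-Ph-IAA. With the block 6 members were called higher (NOP56, NHP2, TSR1, IMP3, EBNA1BP2 and NOC2L) and 3 lower (HEATR1, RCL1 and URB2), at backgrounds of 7.8% and 7.7%. Without the 5-Ph-IAA library 3, NOP56 (0.30) and HEATR1 (-0.32) were called.

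**Figure D4:**
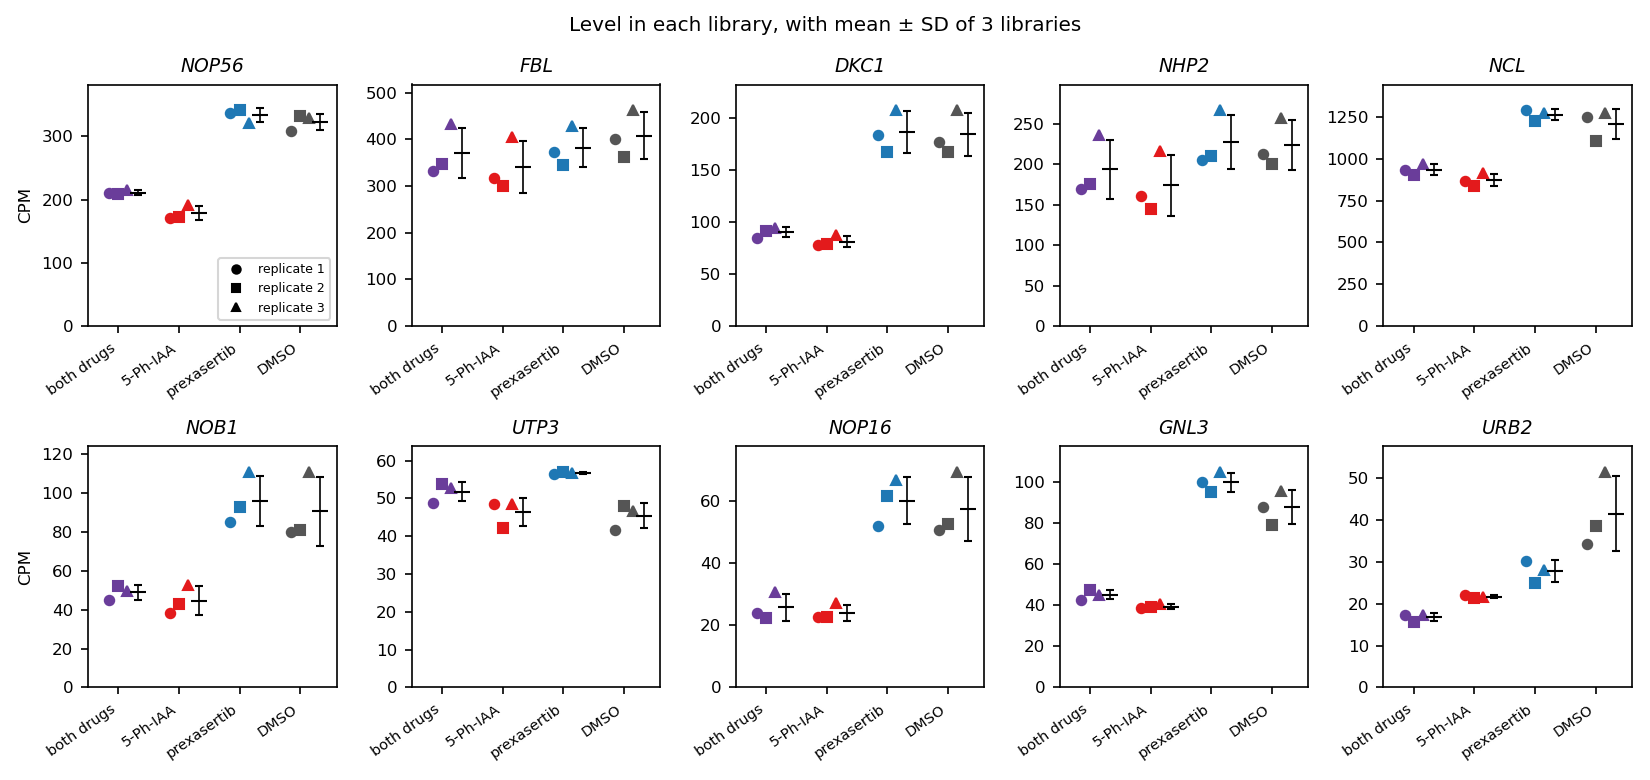
Level in CPM (y axis, from 0) of 10 members in each library of the 4 groups (x axis), with the mean ± SD of 3 libraries beside the points. DKC1, NOP16, GNL3 and NOB1 stand near 0.42 to 0.49 times the DMSO level with 5-Ph-IAA, FBL and NHP2 overlap between groups with library 3 highest in each, and URB2 is lowest with both drugs.

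Set against DMSO, cells given both drugs had 32 members lower and 0 higher by edgeR, where 14.2% of all genes were called lower and 11.8% higher. At an unadjusted p under 0.05, 38 were lower and 1 higher (19.7% and 17.9% of all genes). DESeq2 called 35 lower (14.9% of all genes) and limma-voom 33 (14.1%), neither calling 1 higher. The median was -0.53, as for 5-Ph-IAA alone against the same DMSO libraries. URB2 had the largest change of all members, -1.30 ± 0.14 (adjusted p = 2.6e-05), or 0.41 times the DMSO level, and NOP16 followed at -1.16 ± 0.15 (adjusted p = 0.00014). With the block, 40 members were called lower, FBL, NHP2, NPM1, DDX10, WDR12, NIP7, DDX18 and DDX56 being gained, and UTP3 was called higher, at backgrounds of 23.5% and 21.2% (UTP3 0.19 ± 0.086, adjusted p = 0.12 without the block). With library size alone the count was 31 lower (9.81% of all genes), and 34.8% of all calls were lower, against 54.6% with TMM.

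The libraries numbered 3 stood apart for the members. The median of the members' log2 CPM, each centred on its mean over the 12 libraries, was -0.28, -0.27 and -0.11 in the 3 both-drugs libraries and -0.33, -0.37 and -0.13 with 5-Ph-IAA, against 0.22, 0.18 and 0.35 with prexasertib and 0.19, 0.19 and 0.43 with DMSO. The third library was the highest of its group each time, and every library with 5-Ph-IAA lay below every library without it. Over all genes the same median stayed between -0.01 and 0.02, but TMM scaling and the centring hold it near 0. It therefore cannot show whether other genes shifted in the third libraries. Over all tested genes, deviations from the group means also went together among the libraries numbered 3 (r 0.531 to 0.633). For the libraries numbered 1 or 2, r was 0.22 to 0.402. Without the 4 libraries numbered 3, 39 members fell with 5-Ph-IAA against DMSO (19.3% of the 14730 genes tested) and 42 with both drugs against prexasertib (17.4%).

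Members with and without an E-box in the promoter, taken at the first start listed, fell. Of the 18 members with the E-box, 15 fell with 5-Ph-IAA (median -0.55), and of the 23 with a promoter entry and no E-box, 14 fell (median -0.46). RRP9 and WDR43, printed above with the E-box at the start, fell by 0.91 on the log2 scale, and RCL1 fell by 0.50. EBNA1BP2, with its E-box far upstream, was at -0.28 and not called, and NOP16, without one, fell by 1.26. DKC1, GNL3, NOB1, NOP56 and DDX21 also fell with no E-box in their windows at the first start listed. Among all tested genes with a promoter entry, 17.4% of 1143 with the E-box and 12.2% of 10404 without it were called lower. With both drugs against prexasertib the counts were 15 of 18 (median -0.57) and 13 of 23 (median -0.40). No test was made of the difference between the kinds of promoter.

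**Figure D5:**
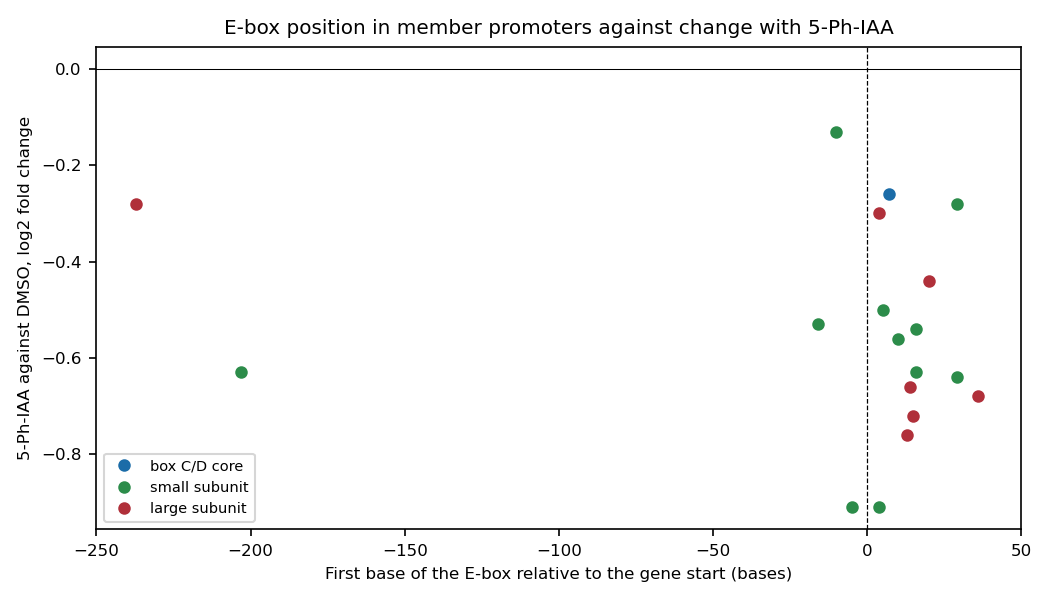
Position of the first base of each E-box relative to the gene start (x axis, bases) and the log2 fold change of its gene for 5-Ph-IAA against DMSO (y axis), for the 18 members whose promoter holds one, coloured by role. Of 19 E-boxes, 17 begin within 50 bases of the start, and those of IMP4 (a second one) and EBNA1BP2 lie farther upstream.

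Some members are themselves hosts of small nucleolar RNAs, which are cut from their introns and guide ribosomal RNA modification. By the RefSeq annotation, 9 members contain 27 such genes: NOP56, NOP58, DKC1, NCL, WDR43, UTP20, TSR1, GNL3 and PPAN. Of these hosts, 7 fell with 5-Ph-IAA (median -0.69), the exceptions being UTP20 (-0.13 ± 0.11, adjusted p = 0.41) and PPAN, beside 29 of the 40 that host none (median -0.52). The same 7 of 9 were called with both drugs against prexasertib (median -0.66). The libraries were selected for poly(A) tails, so the small RNAs themselves were not measured. Of the 15 members that overlap another counted gene, small RNA genes left aside, 11 fell with 5-Ph-IAA (median -0.50). Of the other 34, which include the hosts NOP56, NOP58, DKC1, NCL, WDR43 and UTP20, 25 fell (median -0.58). In this comparison 12.2% of all tested genes were called lower.

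Other genes of the pathway were taken as a list of 88 further tested factors, drawn up by role. It had 32 lower and 0 higher with 5-Ph-IAA against DMSO by edgeR, where 12.2% of all tested genes were called lower and 9.65% higher. Its median was -0.18. At an unadjusted p under 0.05 there were 36 lower and 2 higher (18.2% and 16.4% of all genes). DESeq2 called 33 lower (13.6% of all genes) and limma-voom 31 (12.7%), and neither called 1 higher. By role, 1 of 9 factors that assemble small nucleolar particles, 15 of 35 small subunit factors and 16 of 44 large subunit factors fell. The largest falls were in PWP2, a processome scaffold (-1.72 ± 0.52, adjusted p = 0.029), which had 8 to 18 counts with 5-Ph-IAA against 15 to 54 with DMSO, and in WDR74, a large subunit factor (-0.86 ± 0.13, adjusted p = 0.00036). With both drugs against prexasertib 22 fell and 0 rose by edgeR (10.4% and 7.85% of all genes), with a median of -0.18. Among those called there, the large subunit factors NIFK (-0.92 ± 0.085, adjusted p = 1e-05) and PUM3 (-0.76 ± 0.098, adjusted p = 0.00016) fell most. At an unadjusted p under 0.05, 35 were lower and 2 higher (16% and 15.2% of all genes). DESeq2 called 27 lower (12% of all genes) and limma-voom 23 (10.2%), and neither called 1 higher. With the block the counts were 47 lower and 2 higher (DDX52 and RPF1) with 5-Ph-IAA against DMSO, and 42 lower and 2 higher (SHQ1 and DDX52) with both drugs against prexasertib. In these 2 comparisons the block called 23.6% and 19.9% of all genes lower, and 2780 and 2528 of the 14658 higher.

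For prexasertib against DMSO, SHQ1, an early chaperone of dyskerin, was the 1 gene of the 88 called by edgeR, lower at -0.42 ± 0.11 (adjusted p = 0.041). Of all tested genes, 2.36% were called higher and 2.37% lower. With the block 4 of the 88 were called higher and 9 lower, at backgrounds of 8.37% and 9.77%. DESeq2 called 2 higher and 1 lower, where it called 514 and 474 of the 14658 genes. For both drugs against 5-Ph-IAA the 1 gene of the 88 called by edgeR was PUM3, lower at -0.40 ± 0.097 (adjusted p = 0.049). Of all tested genes, 1.17% were called higher and 1.26% lower. With the block 6 of the 88 were called higher and 4 lower, at backgrounds of 7.8% and 7.7%. DESeq2 called 1 higher and 1 lower (2.13% and 2.35% of all genes). For both drugs against DMSO 31 fell and 3 rose by edgeR, where 14.2% of all tested genes were called lower and 11.8% higher. With the block 44 were called lower and 7 higher, at backgrounds of 23.5% and 21.2%. Those that rose without the block were the small subunit factors UTP23 (0.40 ± 0.11, adjusted p = 0.018), FCF1 (0.31 ± 0.08, adjusted p = 0.012) and DDX52 (0.19 ± 0.064, adjusted p = 0.039). UTP23 had 28.5, 33 and 29.7 CPM with both drugs, against 22.7, 25.3 and 21.3 CPM with DMSO, and the 2 groups did not overlap.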

How the data were processed

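The authors deposited raw counts per gene, whole numbers that were not normalized, for 12 poly(A)-selected, directional RNA libraries. Tools listed in the submitters' processing notes are featureCounts 2.0.8 and limma 3.58.1, with the build hg38. Which aligner, annotation and strand setting were used is not given in the sources used. Of 28395 numeric gene IDs, 27745 matched the RefSeq gene table, and the other 650 held 0.0324% of counts. Groups followed the sample titles. Genes with at least 10 counts in enough libraries of a group, and 15 in all, were tested (14658). The edgeR 4.0.16 quasi-likelihood test (robust, TMM, R 4.3.3) was fitted on all 12 libraries with group means, p-values were adjusted by Benjamini-Hochberg over all genes, and the SE is the log2 fold change over the root of F. Same-numbered libraries deviated together (r 0.22 to 0.633 over 18 pairs, against -0.503 to 0.366 for other pairs, over all genes), so the replicate block is given where it changes a call or count. Alternatives were other scalings and filters, DESeq2 1.42.0, limma-voom 3.58.1, only the groups compared, single libraries left out and the libraries numbered 3 left out. The members and lists were chosen with earlier results of these data known. Members given in every library were all those of roles with up to 4 genes, the 4 largest and 2 smallest changes with 5-Ph-IAA of the larger roles, and the 3 smallest p for prexasertib in each arm. The code was tested on simulated data. The prexasertib dose is not used, since the labels disagree on its unit.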

Additional observations from a re-analysis of the deposited data

How the results depend on the processing

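Of 1188 values of single members under an alternative, 1113 kept their direction and side of the threshold, 29 lost the call, 33 gained it and 13 changed sign. These values were taken for the members given in every library, not for all members, so they do not measure the stability of the whole list. WDR12, NOC2L and DDX10, which gained the call with the block for 5-Ph-IAA against DMSO, were not among them. The changes of sign named below are likewise those of the members given in every library. Members called lower, leaving out single libraries, were 28 to 40 with 5-Ph-IAA against DMSO, 24 to 36 with both drugs against prexasertib and 26 to 35 with both drugs against DMSO. Over the same omissions, 1248 to 1984, 1112 to 1629 and 1578 to 2240 of the 14811 to 14936 genes tested were called lower. For prexasertib against DMSO (1 higher, 1 lower), the higher count was 0 with library size alone, no count filter, limma-voom and only the groups compared. It was 3 with the replicate block and 2 without the libraries numbered 3. The lower count was 4, 0 and 2 with the block, only the groups compared and without those libraries, and single omissions gave 0 to 1 for each. Over all genes, the block called 1227 higher and 1432 lower of 14658, and only the groups compared called 205 and 152 of 13778. Without the libraries numbered 3 these counts were 1061 and 1033 of 14730, and with single omissions 183 to 385 and 123 to 401. The higher counts with library size alone, no count filter and limma-voom were 295 of 14658, 297 of 21797 and 332 of 14658 genes. For both drugs against 5-Ph-IAA (0 and 0), the lower count was 2 with library size alone, 1 with the stricter filter or DESeq2, 3 with the block and 4 without the libraries numbered 3. The higher count was 1, 1, 6 and 2 with the stricter filter, DESeq2, the block and without those libraries, and single omissions gave 0 to 1 for each. Over all genes, 335 of 14658 were lower with library size alone. In the order of the higher counts, 224 of 11655, 345 and 1128 of 14658, and 1131 of 14730 genes were lower, and 194, 312, 1144 and 911 higher. Single omissions gave 54 to 245 genes lower and 102 to 202 higher. For both drugs against DMSO, 1 was higher with library size alone, upper quartile scaling or the block, where 2696, 2334 and 3111 of all 14658 genes were. The sign turned for UTP3 with 5-Ph-IAA (-0.03 and -0.01 without DMSO or 5-Ph-IAA library 1, -0.00 without 5-Ph-IAA library 3) and UTP15 (-0.09 without 5-Ph-IAA library 3, in a range to 0.15 over single omissions, and -0.08 without the libraries numbered 3), and with both drugs against prexasertib for FBL (0.10 library size, 0.03 upper quartile, 0.05, 0.03 and 0.00 without prexasertib library 3 or both-drugs library 1 or 2, in a range from -0.17) and, with library size alone, UTP3 (0.01), UTP15 (0.03) and DDX18 (0.05), none of them called; the cause was not tested. Library size alone moved lower calls of all genes to 62.7% for prexasertib against DMSO (50.1% with TMM) and 68.4% for both drugs against 5-Ph-IAA (51.8%). Of the members, the replicate block changed no other call than those given with the results. With 3 libraries a group, small changes could be missed, and PPAN and PWP2 had few counts.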

Other observations

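MYC, whose product is a known activator of these genes, was read as mRNA only. It had 75.9, 70.7 and 75.7 CPM with both drugs and 112, 100 and 124 CPM with 5-Ph-IAA, against 88.9, 86.1 and 75.4 CPM with prexasertib and 77.1, 88.4 and 97 CPM with DMSO. Its mRNA rose with 5-Ph-IAA against DMSO (log2 fold change 0.36 ± 0.1 SE, edgeR adjusted p = 0.02) and fell with both drugs against 5-Ph-IAA (-0.60 ± 0.1, adjusted p = 0.0057). With both drugs against prexasertib it was not called (-0.17 ± 0.1, adjusted p = 0.27). The members' medians were -0.53 and -0.46 in the 2 arms. These libraries do not measure MYC protein, and the part of MYC in the fall of the members was not tested. The interaction for MYC, -0.53 ± 0.14, was not called (adjusted p = 1), but was with the replicate block (adjusted p = 0.018).

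Other short letters were also searched in the 41 member promoters, on either strand. CCGGAA was in 20 of them (48.8%), against 28.5% of tested genes' promoters, and CACGCG in 12 (29.3%), against 17.9%. TATAAA was in 2 (4.88%), against 5.66%. Of the 20 members with CCGGAA, 16 fell with 5-Ph-IAA, and of the 21 without it 13 fell, while of all tested genes with a promoter entry 12.6% with it and 12.8% without it were called lower. Of the 12 members with CACGCG, 7 fell, and of the 29 without it 22 fell, beside 15.8% and 12% of all tested genes. No test was made of these shares.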
